A study of Mus musculus with 6 samples.

Results

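The GIMAP genes encode a small family of GTPases and were followed in LSKs of irradiated mice. LSKs are bone marrow cells without lineage markers that carry Sca-1 and c-Kit on their surface, a gate in which stem cells and early progenitors of the blood are found. A gene was counted as a member when its name in the deposited table was Gimap1, Gimap3, Gimap4, Gimap5, Gimap6, Gimap7, Gimap8 or Gimap9, which gave 8 of the 55487 genes listed. RNA-seq libraries were available from 3 samples of Tespa1+/+ (wild type) and 3 samples of Tespa1-/- mice. Both genotypes were sublethally irradiated, so every library came from irradiated mice, and unirradiated LSKs were not analysed here. The dose and the time of sampling are not reported here. The mice were young adult males on a C57BL/6 background, the wild type animals were littermates per the labels, and the Tespa1 allele was a germline one, so that the cells around the LSKs lacked the gene as well. Whether a sample was a single mouse or a pool was not stated, so p-values measure the spread between these samples, which may be technical.

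GIMAP stands for GTPase of the immunity-associated protein family. The proteins share a guanine nucleotide-binding domain, several of them sit in the membranes of the endoplasmic reticulum, the Golgi apparatus, mitochondria or lysosomes, and in mammals their genes lie side by side in a single cluster. They are best known from lymphocytes, where loss of Gimap1 or Gimap5 shortens the life of naive T and B cells. Gimap5 has also been tied to the survival and quiescence of hematopoietic stem cells, and Gimap6 to autophagy.

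The total count ranged from 12856630 to 30576981 per library, and the deepest was Tespa1+/+ replicate 2. The Tespa1 gene itself, the check of the labels, had 626, 1033 and 533 counts in the Tespa1+/+ libraries and 261, 207 and 176 in the Tespa1-/- libraries. At 34.4 ± 1.62 against 14.6 ± 0.634 CPM (normalised read counts, on library totals adjusted by TMM factors; mean ± SD, n = 3 per genotype here and below), it was lower but not absent in Tespa1-/- LSKs. Sca-1 (Ly6a), a gate marker, was at 50.5 ± 11.6 and 40.4 ± 3.36 CPM and did not pass the test (adjusted p = 0.109), whereas Kit, the other gate marker, fell from 333 ± 9.79 to 170 ± 6.13 CPM.

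All 8 members were lower in Tespa1-/- LSKs. Each passed the filter on low counts, each was called lower (edgeR quasi-likelihood test, Benjamini-Hochberg adjusted p under 0.05 over 15332 genes and a fold over 1.5), and none was called higher. Of all genes tested, 19.2% were called lower and 14.0% higher by the same rule. In each of the 8 genes the 3 Tespa1-/- libraries also lay below the 3 Tespa1+/+ libraries with no overlap, which was the case for 34.6% of all genes tested. The median log2 fold change (Tespa1-/- over Tespa1+/+) of the members was -2.03, and that of all genes tested was near 0 (-0.000344). Because these are bulk samples, fewer cells of a type and less RNA per cell cannot be told apart.

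**Figure D1:**
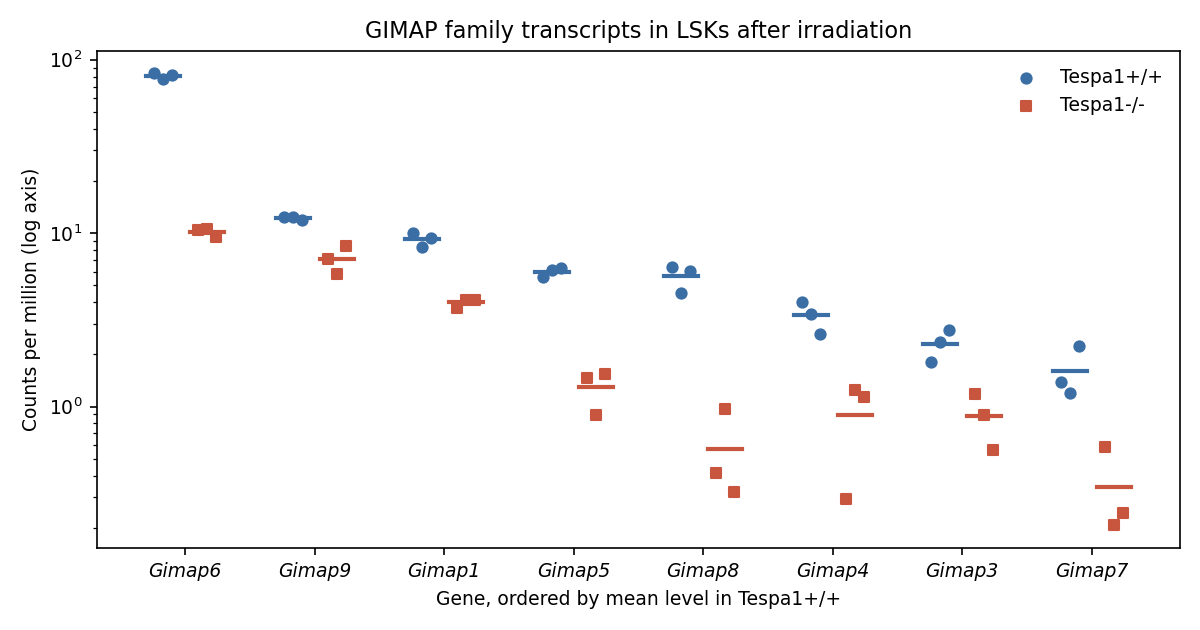
Each point is 1 library; the horizontal axis lists the 8 GIMAP genes by their mean in Tespa1+/+, the vertical axis gives CPM on a log scale, and short lines are the group means. For every gene the 3 Tespa1-/- points lie below the 3 Tespa1+/+ points, with the widest gaps at Gimap6 (81.1 against 10.1 CPM) and Gimap8 (5.66 against 0.566 CPM) and the narrowest at Gimap9 (12.3 against 7.07 CPM).

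Gimap6, which binds the autophagy protein GABARAPL2, was the most abundant member in Tespa1+/+ LSKs and carried most of the fall in the summed FPKM of the family (deposited values scaled by gene length and library total). It had 1516, 2457 and 1215 counts in the Tespa1+/+ libraries and 177, 153 and 117 in the Tespa1-/- libraries, that is, 83.5, 77.8 and 82.0 CPM against 10.4, 10.5 and 9.44 CPM. The libraries within each genotype were close to each other, and the gap between the genotypes was many times the spread. The log2 fold change was -3.00 (SE 0.06; 95% interval -3.15 to -2.85; adjusted p = 3.7e-07), so that the gene was 7.99-fold lower, the 79th lowest of the 15332 genes tested.

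Gimap8, the family member with several GTPase domains in a single chain, had the largest fold. Its counts were 116, 143 and 90 in the Tespa1+/+ libraries and 7, 14 and 4 in the Tespa1-/- libraries. On the CPM scale these were 6.39, 4.53 and 6.07 against 0.411, 0.964 and 0.323, with Tespa1-/- replicate 2 above its other two replicates. The log2 fold change was -3.28 (SE 0.33; interval -4.06 to -2.50; adjusted p = 1.2e-04), a 9.74-fold difference. It was -3.88 without Tespa1-/- replicate 2, so the size rests in part on that library and on few counts.

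Gimap5 and Gimap3 are close paralogs. Gimap5, needed for the survival of naive T cells, had 101, 194 and 93 counts in the Tespa1+/+ libraries and 25, 13 and 19 in the Tespa1-/- libraries. It fell from 5.99 ± 0.380 to 1.30 ± 0.351 CPM (log2 fold change -2.20, SE 0.19, adjusted p = 5.2e-05). Gimap3 had 33, 74 and 41 against 20, 13 and 7 counts and fell from 2.31 ± 0.475 to 0.878 ± 0.305 CPM (-1.34, SE 0.28, adjusted p = 0.0046). Although the estimate was larger for Gimap5, the 95% intervals of the pair overlapped (-2.65 to -1.76 and -2.01 to -0.68).

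The balance within the pair was therefore taken inside each library, as the log2 ratio of Gimap3 to Gimap5 counts per exon length. It was -0.93, -0.70 and -0.49 in the Tespa1+/+ libraries and 0.37, 0.69 and -0.75 in the Tespa1-/- libraries. The groups overlapped, since Tespa1-/- replicate 3 fell among the Tespa1+/+ values. The means differed by 0.81 (two-sided exact permutation test, p = 0.3). With 3 against 3 libraries this test cannot go below 0.1, so it could not have reached 0.05 and says nothing about whether the balance differed. Reads that match both genes are a further limit, because 190 of the 50-base stretches of their transcripts are identical, 7.52% of those of Gimap3 and 4.53% of those of Gimap5.

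Gimap1, an endoplasmic reticulum and Golgi protein needed for mature T and B cells, had 183, 263 and 139 counts against 63, 60 and 51. Its level fell from 9.26 ± 0.879 to 3.98 ± 0.245 CPM, a 2.32-fold difference with little spread on either side (log2 fold change -1.21, SE 0.12, adjusted p = 9.4e-05). The antisense gene Gimap1os overlaps its exons. With strand disregarded, 35.5% of the 50-base stretches of Gimap1 recur in transcripts of other genes, most of them in Gimap1os. Gimap1os had 5, 31 and 15 counts in the Tespa1+/+ libraries and 1, 0 and 0 in the Tespa1-/- libraries and did not pass the filter. The libraries were stranded, but whether counting used the strand was not given in the sources used here, so reads of the overlap cannot be told apart.

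Gimap4, known for speeding the death of T cells, and Gimap7, whose protein hydrolyses GTP as a dimer, were near the lower end of the count range. Gimap4 had 73, 108 and 39 counts in the Tespa1+/+ libraries and 5, 18 and 14 in the Tespa1-/- libraries (3.36 ± 0.696 against 0.887 ± 0.517 CPM; log2 fold change -1.98, SE 0.40, adjusted p = 0.0039). Gimap7 had 25, 38 and 33 against 10, 3 and 3 counts (1.60 ± 0.547 against 0.345 ± 0.210 CPM; -2.07, SE 0.44, adjusted p = 0.0049). In both genes Tespa1-/- replicate 1 stood apart from the other two, low for Gimap4 and high for Gimap7. Without it the log2 fold change was -1.50 for Gimap4 and -2.75 for Gimap7, and both kept their call.

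Gimap9 changed least. Its counts were 226, 392 and 177 in the Tespa1+/+ libraries and 120, 84 and 104 in the Tespa1-/- libraries. These gave 12.4, 12.4 and 11.9 CPM against 7.05, 5.79 and 8.39 CPM, so the genotypes did not overlap but the Tespa1-/- libraries spread more. The log2 fold change was -0.80 (SE 0.13; interval -1.12 to -0.48; adjusted p = 0.0016), or 1.74-fold. Of all genes tested, 14.7% had a log2 fold change this low or lower. A test against a fold of 1.5 rather than against no change (glmTreat) gave an adjusted p of 0.108, so the data do not show that the true fold exceeds 1.5.

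**Figure D2:**
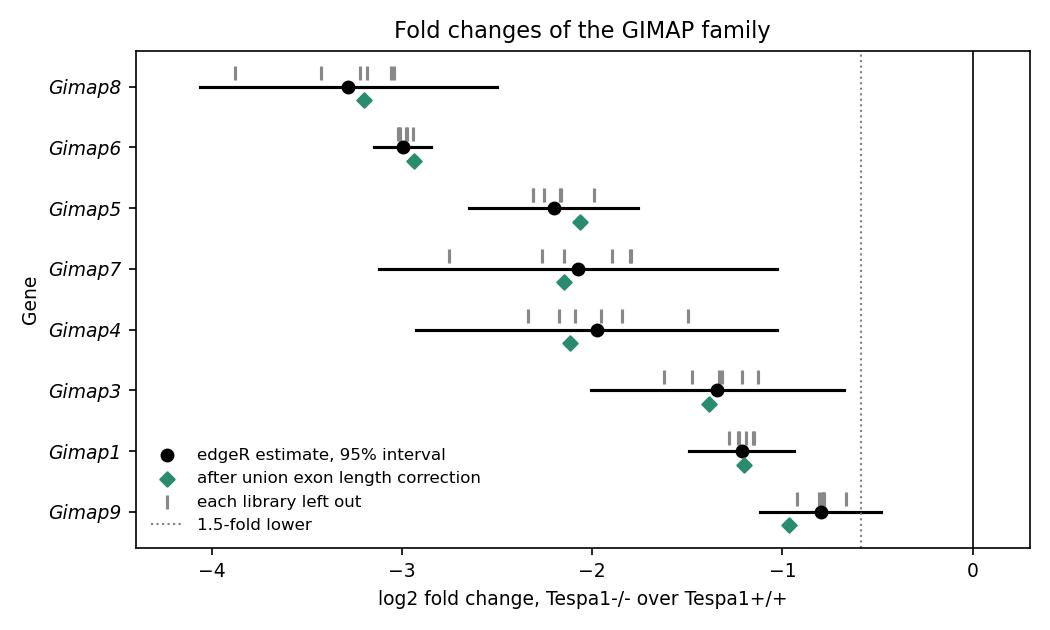
The horizontal axis is the log2 fold change, Tespa1-/- over Tespa1+/+; black points with bars are edgeR estimates with 95% intervals, grey ticks are the 6 fits that each leave out 1 library, green diamonds are estimates after a correction for exon length, and the dotted line marks a 1.5-fold decrease. All estimates lie below 0, from -3.28 for Gimap8 to -0.80 for Gimap9, and the intervals of Gimap4, Gimap7 and Gimap8 are the widest.

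The estimates differed in size between members. Of the 28 pairs of members, 9 had 95% intervals of the log2 fold change that did not overlap, and 19 had intervals that did. Gimap6 was separate from Gimap1, Gimap3, Gimap5 and Gimap9, Gimap8 from Gimap1, Gimap3 and Gimap9, and Gimap5 from Gimap1 and Gimap9. The difference itself was not tested for any of these pairs. The Tespa1-/- libraries also held relatively more counts on short genes, with a summed FPKM over all genes of 432222 to 433536 against 350333 to 351987. With a correction for exon length, which moved the median of all genes by 0.11 on the log2 scale, the log2 fold change was -2.94 for Gimap6, -3.20 for Gimap8 and -0.97 for Gimap9, and all 8 members were still called lower. By that correction 13.5% of all genes tested were called lower, and the median log2 fold change of the 8 members was -2.09.

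Levels of different members were compared per length, in FPKM. In Tespa1+/+ LSKs the order was Gimap6 (15.5 ± 0.577 FPKM), Gimap9 (6.19 ± 0.145), Gimap1 (1.46 ± 0.140), Gimap5 (1.16 ± 0.0720), Gimap8 (0.855 ± 0.151), Gimap7 (0.614 ± 0.210), Gimap3 (0.580 ± 0.119) and Gimap4 (0.573 ± 0.119). The libraries of neighbours did not overlap down to Gimap5 and Gimap8, whereas neighbours among Gimap8, Gimap7, Gimap3 and Gimap4 overlapped. In Tespa1-/- LSKs Gimap9 came before Gimap6 (3.33 ± 0.611 against 1.80 ± 0.107 FPKM), Gimap1 was at 0.584 ± 0.0366, and the remaining 5 members, from Gimap5 at 0.234 to Gimap8 at 0.0797 FPKM, overlapped with their neighbours. The length behind the deposited FPKM was 1.16 to 3.30 times the exon length of the annotation, most of all for Gimap4, which ranked 4th rather than 8th in Tespa1+/+ when the exon length was used. Gimap6 and Gimap9 held the first 2 ranks with either length, in the same order within each genotype.

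Summed over the 8 genes, the family was at 125.1, 116.2 and 123.2 CPM in the Tespa1+/+ libraries and at 25.1, 24.7 and 25.7 CPM in the Tespa1-/- libraries. The mean was 4.83-fold lower (121.5 ± 4.72 against 25.2 ± 0.538 CPM), and without Gimap6 it was 2.69-fold lower (40.4 ± 1.80 against 15.0 ± 1.13 CPM). The composition of the pool differed as well. Gimap6 made up 57.5 ± 0.352% of the summed FPKM in Tespa1+/+ and 27.9 ± 3.60% in Tespa1-/- LSKs, while Gimap9 made up 23.0 ± 1.05% and 51.0 ± 5.65%. Gimap1 went from 5.41 ± 0.355% to 9.02 ± 0.979%, and Gimap8 from 3.17 ± 0.466% to 1.27 ± 0.874%. For these 4 genes the genotypes did not overlap. A larger share of Gimap9 is not a higher level, since its own counts were lower and shares add up to the whole.

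**Figure D3:**
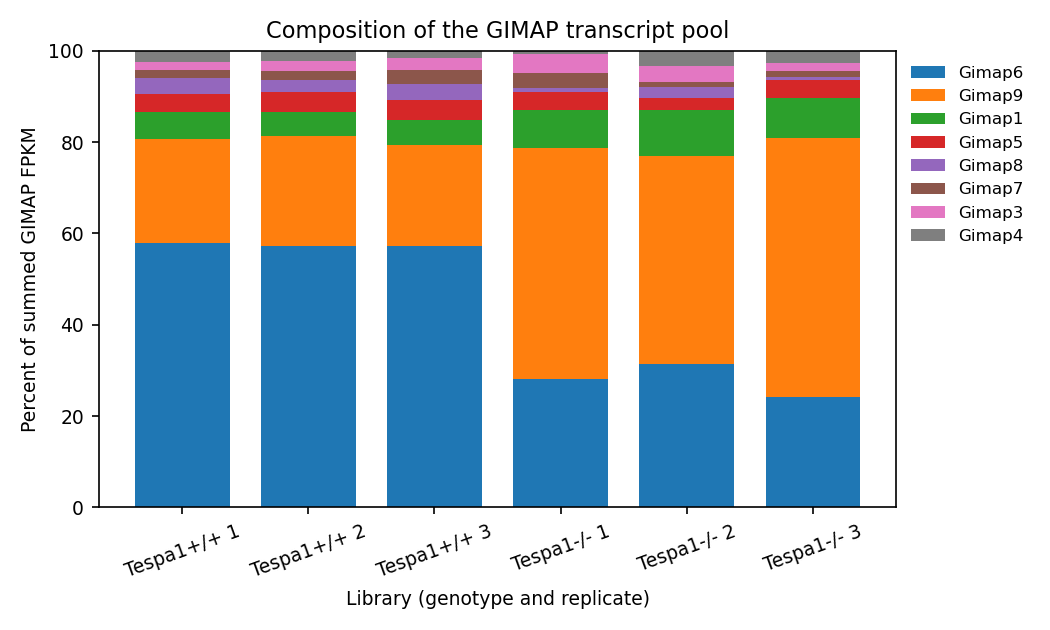
Each bar is 1 library, and its segments give the percent of the summed GIMAP FPKM taken by each member. Gimap6 takes 57.3 to 57.9% in the Tespa1+/+ libraries and 24.2 to 31.3% in the Tespa1-/- libraries, where Gimap9 takes 45.5 to 56.8%.

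The 8 genes lie within 123.6 kb of chromosome 6 (GRCm38, 48647234 to 48770851). From low to high coordinates the order is Gimap8 (48647234 to 48660875, plus strand), Gimap9 (48676129 to 48679114, plus), Gimap4 (48684549 to 48692060, plus), Gimap6 (48701582 to 48708225, minus), Gimap7 (48718621 to 48724636, plus), Gimap1 (48739054 to 48743795, plus), Gimap5 (48746197 to 48754210, plus) and Gimap3 (48764464 to 48770851, minus). The size of the decrease did not follow this order, as Gimap9, which changed least, lies between Gimap8 and Gimap4. All 8 are annotated as protein-coding.

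Gene starts are shown for 3 members whose decreases span the range in the family, the most abundant (Gimap6), the one with the largest fold (Gimap8) and the one with the smallest (Gimap9). Each is the RefSeq window of 300 bases from 250 before to 50 after the start, on GRCm38.p6 and read 5′ to 3′ on the gene's strand, at chr6:48708195-48708494 (minus) for Gimap6, chr6:48646984-48647283 (plus) for Gimap8 and chr6:48675885-48676184 (plus) for Gimap9. Capitals mark matches, on either strand, to any of 6 short motifs named in the next paragraph.
Gimap6: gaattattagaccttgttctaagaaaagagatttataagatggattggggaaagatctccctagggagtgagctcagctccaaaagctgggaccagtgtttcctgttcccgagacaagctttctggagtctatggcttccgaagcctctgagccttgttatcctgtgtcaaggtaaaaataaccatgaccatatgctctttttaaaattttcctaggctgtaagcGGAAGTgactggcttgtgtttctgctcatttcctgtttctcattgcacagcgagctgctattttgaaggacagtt
Gimap8: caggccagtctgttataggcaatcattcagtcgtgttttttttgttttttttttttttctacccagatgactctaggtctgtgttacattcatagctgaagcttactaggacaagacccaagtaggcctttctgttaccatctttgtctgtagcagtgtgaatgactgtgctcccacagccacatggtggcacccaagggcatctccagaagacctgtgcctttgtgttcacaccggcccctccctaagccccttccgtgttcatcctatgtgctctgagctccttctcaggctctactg
Gimap9: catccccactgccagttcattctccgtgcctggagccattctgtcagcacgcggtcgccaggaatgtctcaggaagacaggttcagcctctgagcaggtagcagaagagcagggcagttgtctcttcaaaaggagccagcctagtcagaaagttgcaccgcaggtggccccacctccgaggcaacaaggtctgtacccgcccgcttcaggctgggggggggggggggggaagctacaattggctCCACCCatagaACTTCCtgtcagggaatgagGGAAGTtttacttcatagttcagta

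All 8 members matched the RefSeq table, with 9 windows, since Gimap8 has 2. The letters searched on both strands were GGAAGT for ETS factors, TGTGGT for RUNX factors, CCACCC for KLF factors, CTTTGA for TCF/LEF factors, AGATAA for GATA factors and CACGTG for MYC, and no matches overlapped in these windows. GGAAGT was in 4 of the 9 windows, those of Gimap1, Gimap5, Gimap6 and Gimap9, and in 23.8% of all 32851 windows. CCACCC was in 5, those of Gimap3, Gimap4, Gimap5, Gimap9 and 1 of the windows of Gimap8, against 31.5% of all windows. TGTGGT was in 3 (Gimap1, Gimap4 and Gimap7; 16.8% of all) and CTTTGA in 2 (Gimap4 and Gimap7; 16% of all). AGATAA (11.2% of all) and CACGTG (7.15% of all) were in none of the 9. No motif was common to all members, and the Gimap8 window printed above held none of the 6. The GC content of the member windows was 43.3 to 57.3% with a median of 48%, against a median of 52.7% for all windows.

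Other genes of the same stretch of chromosome 6 were read as neighbours. Within 200 kb of the cluster on either side 33 further genes are listed, and 13 passed the filter, of which 4 were called lower, 1 higher and 8 neither. Inside the cluster 2 were tested and both fell, the protein-coding model Gm28053 (13, 39 and 18 against 2, 4 and 8 counts; log2 fold change -1.71, adjusted p = 0.021) and the lincRNA 4833403J16Rik (17, 30 and 15 against 2, 3 and 4 counts; -2.19, adjusted p = 0.0011). Gm28053 runs through exons of Gimap7, Gimap1 and Gimap5 on the same strand, so it is no separate reading, but its counts came to only 2.04 to 11.0% of the summed counts of those 3 genes.

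Outside the cluster 11 neighbours were tested, of which 2 fell, 1 rose and 8 were not called. These counts are near the shares over all genes tested, of which 19.2% were called lower and 14.0% higher. The adjacent pair Gm5111 and Repin1, the latter a zinc finger gene, fell by 1.35 and 0.83 on the log2 scale (adjusted p = 0.0030 and 0.0020). The processed pseudogene Gm10243, whose reads can come from a parent gene elsewhere, rose by 0.83, or by 0.28 and uncalled with the correction for exon length. Nearest to Gimap8, AI854703 had a log2 fold change of -0.48 (adjusted p = 0.106). Beyond Gimap3, the membrane protein genes Tmem176b and Tmem176a were at 97.4 ± 7.38 and 68.2 ± 2.54 CPM in Tespa1+/+ and at 97.2 ± 1.69 and 62.7 ± 2.83 CPM in Tespa1-/- LSKs. Their log2 fold changes were -0.00 (SE 0.06, adjusted p = 0.961) and -0.12 (SE 0.05, adjusted p = 0.074). The remaining 5, Zfp862-ps (-0.08), Gm7887 (-0.04), Lrrc61 (0.48), Zfp775 (-0.02) and Gm7932 (0.09), did not pass the test.

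**Figure D4:**
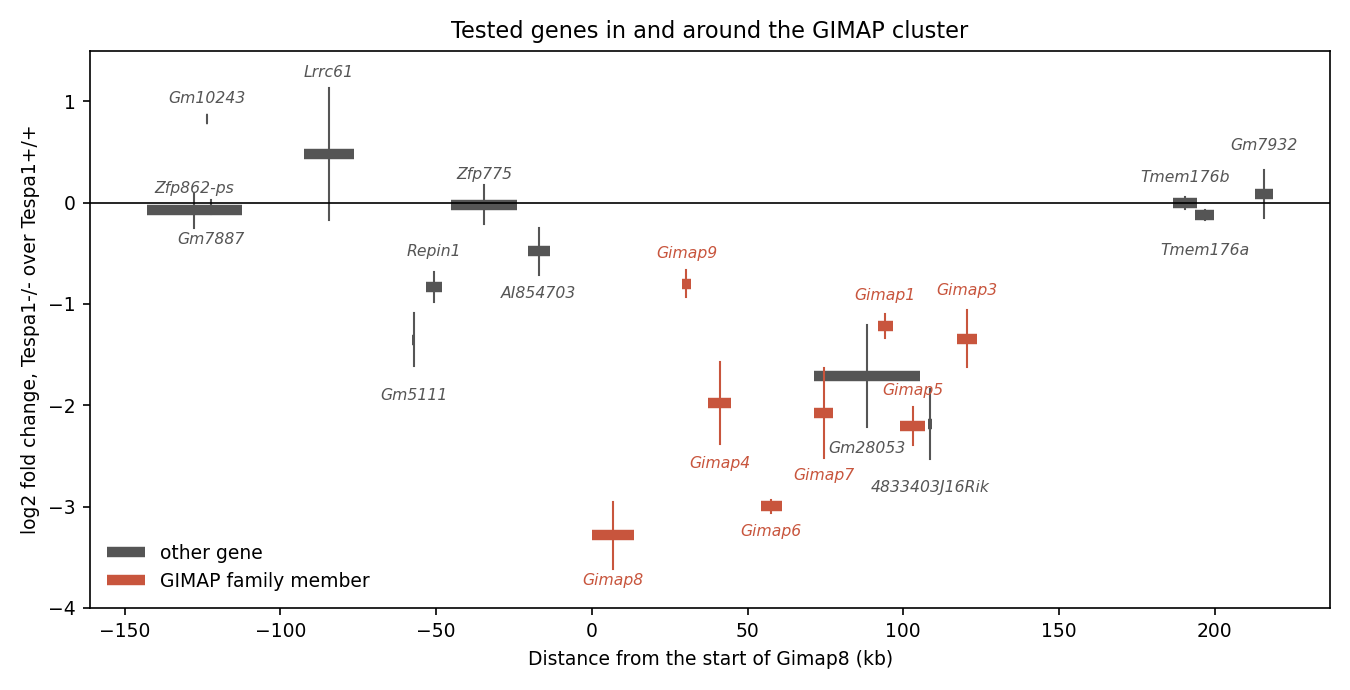
Horizontal bars span each tested gene from start to end, in kb from the start of Gimap8, at the height of its log2 fold change (Tespa1-/- over Tespa1+/+), and vertical lines are ± 1 SE. The 8 GIMAP genes lie between -3.28 and -0.80. The 2 other tested genes inside the cluster are at -1.71 and -2.19. Of the 11 tested genes outside it, 8 were not called. Over all genes tested 19.2% were called lower and 14.0% higher.

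The known partners of GIMAP proteins were examined next. Of 7 genes, 1 fell, 1 rose and 5 were not called, with a median log2 fold change of 0.28. These counts are near the shares over all genes tested (19.2% called lower and 14.0% higher), so the list as a whole did not stand out. Bcl2, which blocks mitochondrial cell death, fell from 184.7 ± 2.62 to 91.9 ± 6.92 CPM (log2 fold change -1.01, SE 0.06, adjusted p = 7.6e-06), and Bax, which drives it, rose from 47.1 ± 4.29 to 76.5 ± 2.35 CPM (0.70, SE 0.07, adjusted p = 1.0e-04). Mcl1, another survival protein, and Hspa8, a chaperone, had adjusted p-values of 4.0e-05 and 0.0010 but folds under 1.5 (log2 fold changes -0.35 and 0.58). The same held for Gabarapl2, the partner of Gimap6, at 25.2 ± 1.72 against 36.4 ± 1.80 CPM (0.53). Gsk3b was at 71.8, 75.4 and 71.8 CPM in the Tespa1+/+ libraries and 24.7, 65.5 and 43.4 CPM in the Tespa1-/- libraries (-0.72, adjusted p = 0.0705), and Bcl2l1 overlapped between genotypes (0.28). With the correction for exon length Bcl2 was at -0.50 and Bax at 0.52 on the log2 scale, both under the fold of 1.5, and Hspa8 at 0.73 was called, so that only the direction of Bcl2 and Bax held with either scaling.

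Other GTP-binding families were read beside the GIMAP genes. For the counts that follow, 19.2% of all genes tested were called lower and 14.0% higher. Septins, filament-forming proteins related to GIMAP proteins by their GTPase domain, had 9 of 13 genes tested, of which 1 fell (Septin8, log2 fold change -1.16, adjusted p = 7.1e-05), 8 were not called and none rose. The most abundant, Septin9 and Septin11, were at -0.27 and -0.39, and the list's median was -0.38, or 0.04 with the correction for exon length. Among interferon-inducible GTPases 19 of 20 genes were tested, 11 fell, none rose, and the median was -0.71. Gbp4 (-2.18, adjusted p = 3.9e-04) and Iigp1 (-2.02, adjusted p = 3.3e-04) changed most. Gvin1, the most abundant in Tespa1+/+ LSKs, was lower in every Tespa1-/- library (log2 fold change -1.91, SE 0.52, adjusted p = 0.014). It was at 69.7, 12.8 and 67.5 CPM there, so the size rests in part on Tespa1-/- replicate 2. Gbp3 was not called and was almost as abundant in Tespa1-/- LSKs (97.5 ± 1.43 CPM) as in Tespa1+/+ (104.3 ± 2.78 CPM). Interferon-inducible GTPase genes are in part recent duplicates, so reads may be split between copies.

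GIMAP transcripts are abundant in lymphocytes, so genes of the lymphoid programme and of other cells were listed next to them. The shares over all genes tested were again 19.2% called lower and 14.0% called higher. Of 12 genes of naive lymphocytes 9 fell and none rose (median -1.26, summed level 1436 to 1488 against 919 to 956 CPM). With the correction for exon length 8 fell and the median was -0.92. The genes that fell included Bach2, a repressor that holds lymphocytes in a naive state (11.8 ± 0.590 against 0.635 ± 0.203 CPM). Il7r, the receptor for interleukin-7 (-1.75), and Klf2 (-0.71) fell as well. Of 12 genes of lymphoid-primed progenitors 10 fell and none rose (median -1.41, summed level 1272 to 1326 against 590 to 604 CPM). With the correction for exon length the median was -1.05. Il7r and Satb1 are in this list and in that of naive lymphocytes, so the counts of fallen genes are not separate. Dntt, which adds bases to antigen receptor joints, fell from 151.1 ± 3.62 to 31.8 ± 1.43 CPM, Rag1 from 8.49 ± 0.657 to 1.05 ± 0.425, Ighm from 249.7 ± 5.92 to 130.6 ± 5.13 and the cytokine receptor Flt3 from 225.8 ± 2.74 to 112.1 ± 0.708 CPM.

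Transcripts of the T and NK cell and B cell lists were mostly sparse, and these lists are not limited to mature lymphocytes. Of 22 T and NK cell genes 10 were tested, 6 fell, 1 rose and 3 were not called (median -0.91). Among all genes tested, 19.2% were called lower and 14.0% higher. The summed level of the list was 228 to 239 CPM in Tespa1+/+ and 329 to 344 CPM in Tespa1-/- LSKs, and most of it was Nkg7, which rose from 194.0 ± 5.80 to 316.8 ± 7.75 CPM. Among the chains of the T cell receptor complex, Cd247 passed the filter and was called lower (15, 36 and 12 against 8, 0 and 2 counts; log2 fold change -2.05, SE 0.63, adjusted p = 0.0245), while Cd3d, Cd3e and Cd3g did not pass it. The coreceptors Cd4 (17, 29 and 9 against 6, 2 and 0 counts; adjusted p = 0.015) and Cd8a (32, 59 and 34 against 15, 16 and 13 counts; adjusted p = 0.0044) were called lower too. Lck, a kinase that acts with them, fell from 12.8 ± 0.717 to 6.96 ± 0.541 CPM. Cd3e had 8, 7 and 4 counts in the Tespa1+/+ and 0, 0 and 0 in the Tespa1-/- libraries, Cd3d 4, 4 and 0 against 1, 2 and 4, and Cd3g 0, 5 and 0 against 4, 3 and 0. Zap70, the kinase of that receptor, had 14, 34 and 16 against 3, 0 and 1 counts, Cd28 70, 98 and 59 against 13, 9 and 2, and Lat was not called (-0.58). Of 12 B cell genes 8 were tested, 6 fell and 2 were not called (median -1.01; 60.7 to 67.3 against 43.1 to 46.2 CPM). Pax5, the B lineage factor, was at -2.36 and Blnk at -1.61, Cd79b was not called (0.27), and Fcer2a and Cr2, found on mature B cells, were at 0 in all 6 libraries. The part of lymphocytes in the GIMAP decrease was not tested.

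Transcripts listed as markers of other cell types differed between the genotypes as well. The lineage stain described in the study, which is meant to leave out mature cells, was against CD3e, CD11b, Gr-1, B220 and Ter-119. Of 13 genes of the endothelial list 10 fell and none rose (median -2.13, summed level 279 to 282 against 140 to 155 CPM). Its median was -1.56 with the correction for exon length. Among all genes tested, 19.2% were called lower and 14.0% higher. The endothelial cadherin Cdh5 had 45, 73 and 21 counts against 9, 6 and 6, Stab2 102, 198 and 83 against 0, 2 and 3, and Kdr 46, 62 and 28 against 3, 0 and 0, whereas Pecam1 and Egfl7, the most abundant of the list by the mean over both genotypes, were not called (-0.57 and -0.51). Tie1, more abundant than Egfl7 in Tespa1+/+ LSKs (52.6 ± 3.58 CPM), was called lower (-1.37). Tie1 also belongs to the stem cell identity list below, so the counts of both lists include it. Flt1 went the other way, from 5.75 ± 1.06 to 8.25 ± 1.03 CPM with no overlap (0.51, adjusted p = 0.026), and was called higher at 1.19 with the correction for exon length. Of 15 genes of stem cell identity 11 fell and none rose, among them Fgd5 (-2.88) and Angpt1 (-2.23). Their summed level was 446 to 457 against 187 to 196 CPM. The median of the list was -1.21, or -0.85 with the correction for exon length, by which 10 fell. The gate list held the gate markers Kit and Ly6a and also Cd34, Cd48 and Ptprc, which do not define the gate. In it Kit and Cd34 fell and 3 genes were not called (median -0.32). The summed level of all its genes was 1189 to 1240 against 725 to 807 CPM. With the correction for exon length Kit (-0.48), Cd34 (-0.38) and Nkg7 (0.37) kept their direction but were under the fold of 1.5. Ly6a was at -0.57 by that correction (edgeR, adjusted p = 0.015), also under the fold of 1.5. Neutrophil genes went the other way, with 10 of 11 tested genes higher and none lower and a summed level of 52.9 to 53.9 against 553 to 580 CPM. Cxcr2 was not called (0.23, adjusted p = 0.132). Ly6g had 0, 0 and 0 counts in the Tespa1+/+ and 7, 8 and 4 in the Tespa1-/- libraries and did not pass the filter. Lcn2 rose from 15.8 ± 0.701 to 128.6 ± 8.64 CPM and S100a9 from 0.905 ± 0.258 to 114.6 ± 4.25 CPM, and Ngp had 3, 8 and 5 counts against 1226, 1054 and 885. The part of these cells in the GIMAP values was not tested either.

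**Figure D5:**
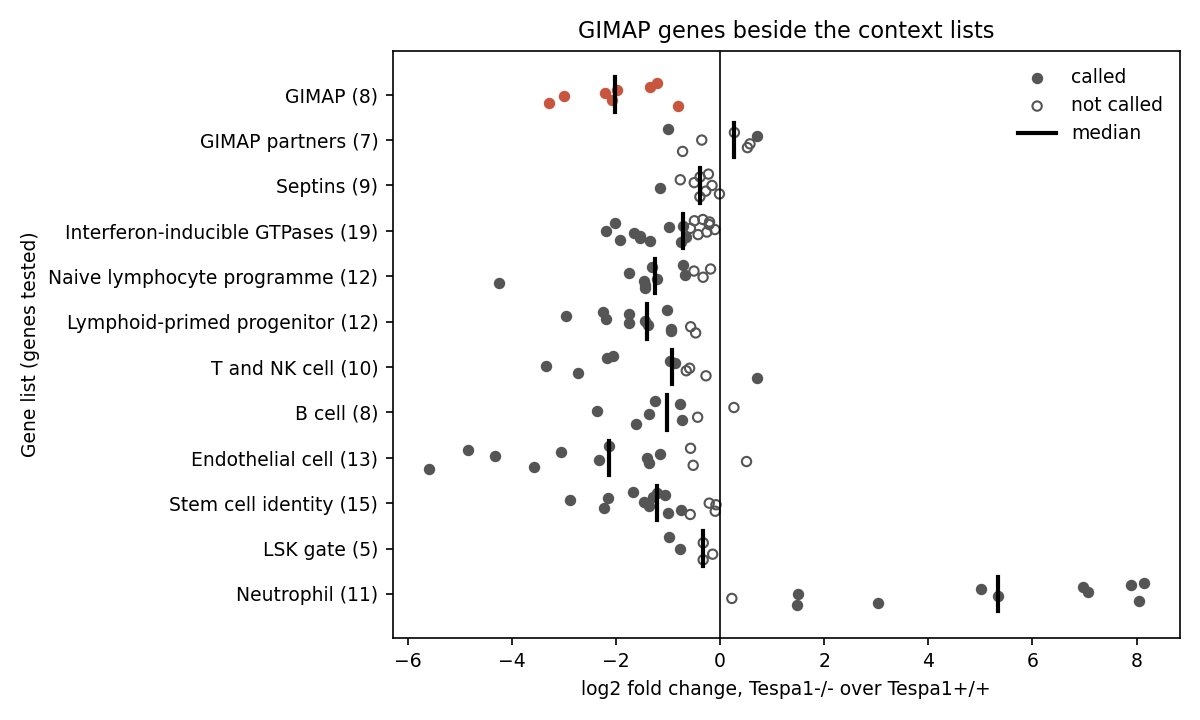
Each point is a tested gene at its log2 fold change (Tespa1-/- over Tespa1+/+), filled when called. Vertical bars are list medians, with the number tested in parentheses. Over all genes tested 19.2% were called lower and 14.0% higher. All 8 GIMAP genes are filled and below 0, as are most genes of the lymphoid, endothelial and stem cell lists, while neutrophil genes are above 0; points for genes with 3 or fewer counts in every library of a genotype depend on the prior count of the fit.

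The genes whose profile over the 6 libraries lay nearest to the mean profile of the GIMAP genes were looked up among 10818 genes with a mean count of at least 100, by Euclidean distance of log2 CPM deviations. These were Prrc2b (distance 0.132), Rnf213 (0.157), Pde4b (0.176), the unverified transcript model A930004J17Rik (0.194) and H2-Q6 (0.208). Rnf213, a giant ubiquitin ligase, was at 784 ± 10.4 against 198 ± 4.18 CPM, and Pde4b, a cyclic AMP phosphodiesterase, at 178.6 ± 3.00 against 48.2 ± 0.663 CPM. H2-Q6 is a class I histocompatibility gene with near-identical copies, so its counts are uncertain. The profiles were not corrected for length, and with that correction the log2 fold changes of Prrc2b, Rnf213 and Pde4b, which have long transcripts, were -1.34, -1.20 and -1.32 in place of -1.94, -1.98 and -1.89. With 2 groups of 3 libraries the profile is mostly the difference between genotypes, and likeness here means a fold near the family's median and a small spread.

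For the members with few counts the filter and the scale mattered. With at least 10 counts required in every library, or FPKM of at least 1 in 3 libraries, Gimap3, Gimap4, Gimap7 and Gimap8 were not tested, and the remaining 4 were called lower. On log2(FPKM + 1) values with no filter, Gimap3, Gimap4 and Gimap7 kept their direction but were under the 1.5-fold limit.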

How the data were processed

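Poly-A RNA of sorted LSKs was sequenced as stranded paired-end libraries. The submitters' processing notes name CASAVA 1.8, HISAT2, StringTie and edgeR and the build GRCm38. The authors deposited a single table of 55487 genes with raw counts per gene and FPKM values (counts per gene length and library total); the counting tool's strand setting was not given in the sources used here. Reads carry no molecular identifiers, so a floor of 3 counts covers counting error only.

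Groups came from the sample titles. The test was the quasi-likelihood F-test of edgeR 4.0.16 in R 4.3.3, after filterByExpr and with TMM factors, and p-values were adjusted by Benjamini-Hochberg across 15332 genes. Genes with a fold above 1.5 whose adjusted p was below 0.05 were called. The common biological coefficient of variation was 0.11. CPM are counts on library totals adjusted by TMM factors. Deposited FPKM served for levels between genes and, in limma 3.58.1, for alternatives with pseudocounts of 1 and 0.1. Other alternatives were DESeq2 1.42.0, other scalings, filters and cutoffs, a length correction (loess, span 0.5), a replicate block and leaving out each library. The fits were tested on simulated data.

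The members and the gene lists were chosen with earlier results of these data known. Named were all members, Tespa1, tested neighbours within 200 kb, from each list the 2 called genes with the largest change and the 2 most abundant (defining markers, the other partners, Cdh5, Tie1, Flt1 and Lck were added after their values were seen), and the 5 nearest profiles; a few genes that this rule names are not reported here. Positions and exon lengths are from GENCODE M21, promoters from RefSeq (GRCm38.p6).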

Additional observations from a re-analysis of the deposited data

How the results depend on the processing

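Of 140 values of single members under the alternatives, all were below 0 and 136 stayed on the same side of the call. The 4 others were Gimap3 (-0.39), Gimap4 (-0.46) and Gimap7 (-0.52) on log2(FPKM + 1) with no filter, a scale that shrinks low values, and Gimap9 (-0.80, adjusted p = 0.108) tested against a fold of 1.5. The count of members called lower was 4 with at least 10 counts in every sample and 4 on log2(FPKM + 1) and on log2(FPKM + 0.1), where only 4 were tested, and 5 on log2(FPKM + 1) with no filter. Over all genes, against 2148 higher and 2951 lower, the test against a fold of 1.5 called 1020 and 1807, log2(FPKM + 1) gave 1070 and 1626, the same with no filter 1090 and 1716, and log2(FPKM + 0.1) 1365 higher. Total counts without TMM factors moved the median of all genes by -0.10 on the log2 scale and the split to 1491 higher and 3516 lower, and the 8 members stayed called. The length corrections moved it by 0.11 and the split to 1787 higher and 2069 lower (exon length) or 1954 and 2136 (length implied by FPKM). Of the context lists 9 had a median below 0, and 8 with the exon length correction, where that of septins was 0.04.

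Leaving out each library in turn called 8 of 8 members lower in every fit, with 2078 to 2246 genes higher and 2716 to 2885 lower over all genes. The log2 fold changes ranged from -3.88 to -3.04 for Gimap8, from -2.75 to -1.80 for Gimap7, from -2.34 to -1.50 for Gimap4 and from -3.02 to -2.94 for Gimap6. Gimap8 moved by over 1.5 times without Tespa1-/- replicate 2 and Gimap7 without Tespa1-/- replicate 1.

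Same-numbered replicates of the genotypes did not deviate together (r = 0.046, 0.011 and 0.060), so the numbers were not taken to pair the samples. With the replicate number as a block, 8 members were called lower, with Gimap6 at -3.00 (adjusted p = 7.8e-05) and Gimap3 at -1.34 (adjusted p = 0.022), and 2101 genes were higher and 2871 lower.

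Depth limits Gimap7, Gimap8 and Gimap4 most, whose Tespa1-/- libraries held between 3 and 18 counts.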
